A study of Mus musculus with 9 samples.

Results

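The expression of 7 genes of muscle excitability was compared between sham-operated mouse quadriceps and heart: the sodium channel genes Scn4a and Scn4b, the pacemaker channel genes Hcn2 and Hcn4, and the connexin genes Gja1, Gja5 and Gjc1. They were chosen by gene symbol from the table that compares quadriceps with adult heart, and they are 7 of its 24537 gene names and 10 of its 35745 transcripts. All of them were listed and all 10 transcripts passed the filter of more than 5 counts in at least 2 of the 6 libraries, although Hcn4 did so through the heart libraries, with only 1 quadriceps library above 5 counts. RNA was sequenced from 3 sham heart and 3 sham quadriceps samples of C57Bl6 mice (male C57Bl/6JCrl by the methods) that underwent sham surgery at 8 weeks of age and were studied 12 weeks later, so both groups share the operation and no genetic change is given. The comparison asks which transcripts belong to skeletal muscle and which to heart in animals without aortic constriction (TAC). The 3 libraries of quadriceps after TAC come with a table of 587 secreted-protein genes that lists 0 of the 7 genes, so the effect of TAC on them was not analysed here. The labels number the replicates without tying them to animals, and the methods speak of biological replicates for the experiments in general. Replicates differed by more than sampling noise, and the p-values measure the spread between these samples. The sources do not name the chamber or region of heart taken, and the extraction text of the heart samples speaks of quadriceps.

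Voltage-gated sodium channels carry the fast upstroke of the action potential, with a pore-forming alpha subunit and smaller beta subunits that tune its gating. HCN channels open on hyperpolarization and carry the pacemaker current of the sinoatrial node and the conduction system. Connexins form gap junctions that pass current from one cardiomyocyte to the next at the intercalated disc and also couple vascular cells, whereas adult skeletal fibres are multinucleated cells that are excited one by one through their nerve.

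The libraries held 33102826 to 38382751 counts for heart and 23383452 to 32989108 for quadriceps, so depth differed with the tissue. Marker genes fitted the tissue labels: the cardiomyocyte list (Myh6, Tnnt2, Tnni3, Ryr2, Nkx2-5) summed to 15063 to 15763 RPKM (reads per kilobase of transcript, scaled to the library total) in heart and 3.05 to 4.8 in quadriceps, with Nkx2-5 at 0 counts in all quadriceps libraries, and the fast fibre list (Myh4, Myh1, Acta1, Tnnt3, Tnni2, Cacna1s) to 31292 to 35743 in quadriceps and 144 to 341 in heart. The heart libraries stood apart from one another in atrial markers. Myl7, the atrial myosin light chain, had 2075, 164 and 3 counts in heart replicates 1, 2 and 3, and Sln, which encodes the atrial calcium pump inhibitor sarcolipin, had 838, 48 and 2. The 5 atrial markers summed to 1038, 642 and 286 RPKM, with Bmp10 at 0, 0 and 1 counts. Most of that sum was Nppa, at 687, 610 and 283 RPKM, while Myl7 had 96.4, 7.35 and 0.156. Results are therefore also given for heart replicate 3 alone, a fit chosen after the data were seen. That fit holds no spread between hearts, so only its effect sizes are given for the members.

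Between the tissues, both sodium channel genes among the 7 rose in quadriceps relative to heart, and both pacemaker channel genes and all 3 connexins fell. The rise is that of these members, since of the 6 sodium channel alpha subunits tested 2 rose and 3 fell. In a quasi-likelihood fit of 24280 transcripts with edgeR, adjusted for all of them after Benjamini and Hochberg, 2 members were higher and 5 lower at an adjusted p under 0.05, where 66.6% of all tested transcripts were called, 32.2% higher and 34.4% lower. With a log2 fold change beyond 2 and an unadjusted p under 0.05, the count was 2 higher (Scn4a, Scn4b) and 3 lower (Hcn2, Hcn4, Gja1), against 7% and 8.64% of all tested transcripts (15.6% in either direction). The groups did not overlap in CPM (counts scaled to a common library size by the trimmed mean of M-values, TMM) for any of the 7, which held for 72.6% of all tested transcripts. The median of their 7 log2 fold changes was -1.91, while that of every tested transcript was -0.06. Against heart replicate 3 alone, all 7 kept their direction. In bulk tissue, fewer cells of a type and less RNA per cell cannot be told apart.

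**Figure D1:**
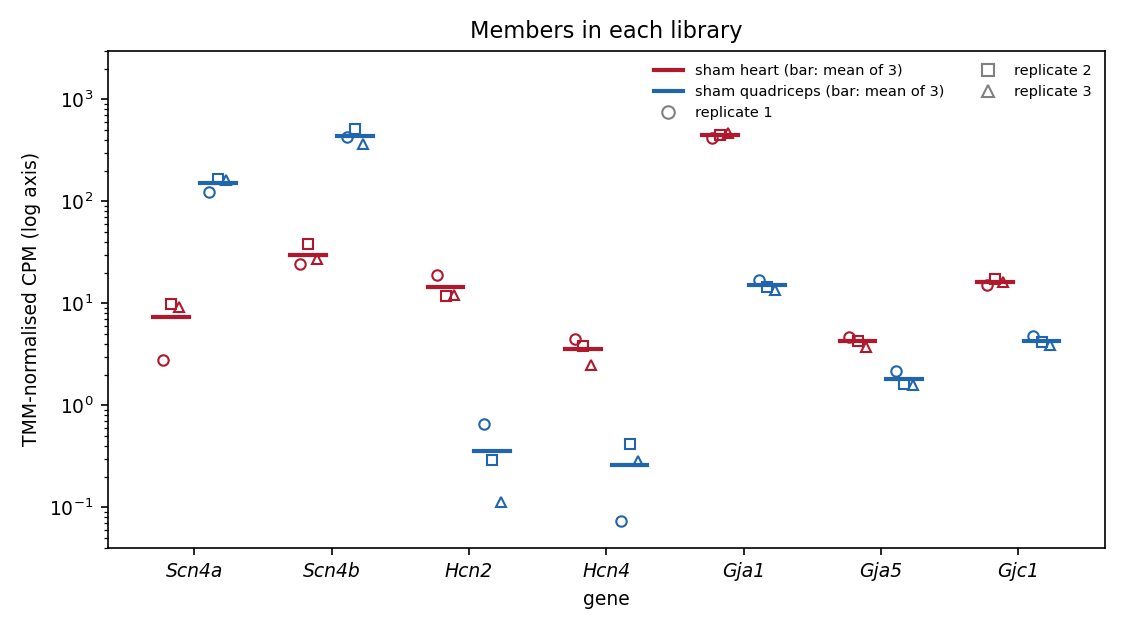
Level of the 7 genes in each of the 6 libraries, as TMM-normalised CPM on a log axis, with 1 point per library and a bar at each group mean. Scn4a and Scn4b lie higher in all 3 quadriceps libraries, the other 5 genes lie higher in all 3 heart libraries, and Hcn2 and Hcn4 spread most in quadriceps.

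Scn4a (chromosome 11, 106318592 to 106353288, minus strand, GRCm38) encodes the adult skeletal muscle sodium channel alpha subunit. It had 3378, 3937 and 2853 counts in quadriceps replicates 1 to 3 and 134, 501 and 393 in heart replicates 1 to 3. The lowest quadriceps library held several times the highest heart library, and heart replicate 1 was the lowest of all. Scaled to CPM the means were 150 ± 22.4 in quadriceps and 7.31 ± 3.91 in heart (SD, n = 3 each), a log2 fold change of 4.36 (SE 0.40) or 20.5-fold, with an adjusted p of 1.15e-05 by edgeR's quasi-likelihood test. Without heart replicate 1 the log2 fold change was 3.97, and against heart replicate 3 alone it was 3.99. Heart Scn4a amounted to 4.87% of the quadriceps level, and the 6 fast fibre markers ranged from 0.00131% for Tnnt3, a fast troponin, to 1.82% for Cacna1s, the calcium channel of the fibre, and 3.39% for Acta1, skeletal actin.

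Scn4b (chromosome 9, 45138395 to 45154152, plus strand) encodes the beta-4 subunit, which binds the alpha subunit through a disulfide bond. Its counts were 11570, 12399 and 6427 in quadriceps and 1153, 1925 and 1158 in heart. Means were 436 ± 78.0 CPM in quadriceps and 29.8 ± 7.45 in heart (SD, n = 3 each), with a log2 fold change of 3.87 (SE 0.21, 14.6-fold) and an adjusted p of 3.81e-07 by edgeR's quasi-likelihood test. The heart level was 6.84% of that in quadriceps. Among the 7 genes Scn4b had the highest RPKM in quadriceps, at 79.1 ± 12.6, against 17.5 ± 1.53 for Scn4a, and their 3 libraries did not overlap.

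Within a library, the ratio of Scn4a to Scn4b in RPKM was 0.188, 0.205 and 0.286 in quadriceps and 0.0749, 0.168 and 0.219 in heart. The groups overlapped, and the difference of 0.67 on the log2 scale gave an exact two-sided permutation p of 0.3 (adjusted 0.375 over 5 pairs). With 3 against 3 libraries the smallest p possible is 0.1. Both genes were lower in heart, and a shift in their proportion was not resolved at this number of libraries.

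Around these members, the alpha subunits differed in make-up between the tissues. Scn4a made up 93, 96.4 and 96% of the summed RPKM of the alpha subunits in the quadriceps libraries and 1.84, 6.26 and 6.18% in the heart libraries. Scn7a, which encodes the atypical sodium-sensing channel, had 851, 975 and 657 counts in the heart libraries against 221, 116 and 88 in quadriceps (log2 fold change -1.54, SE 0.20, adjusted p 9.74e-05 by edgeR). It held only 10.3% ± 0.864 of the summed alpha subunit RPKM in heart and 3.56% ± 1.65 in quadriceps (SD, n = 3 each). Of the 10 alpha subunit genes listed, 6 were tested, 2 rose and 3 fell, where scaling by library totals gave Scn2a 0.40, not called.

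Of the 4 beta subunit genes, all tested, 3 rose and 0 fell, where scaling by library totals gave Scn2b 0.28, not called. Of the summed beta subunit RPKM, Scn4b held 56.5% ± 4.02 in heart and 47.6% ± 2.98 in quadriceps (SD, n = 3 each).

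**Figure D2:**
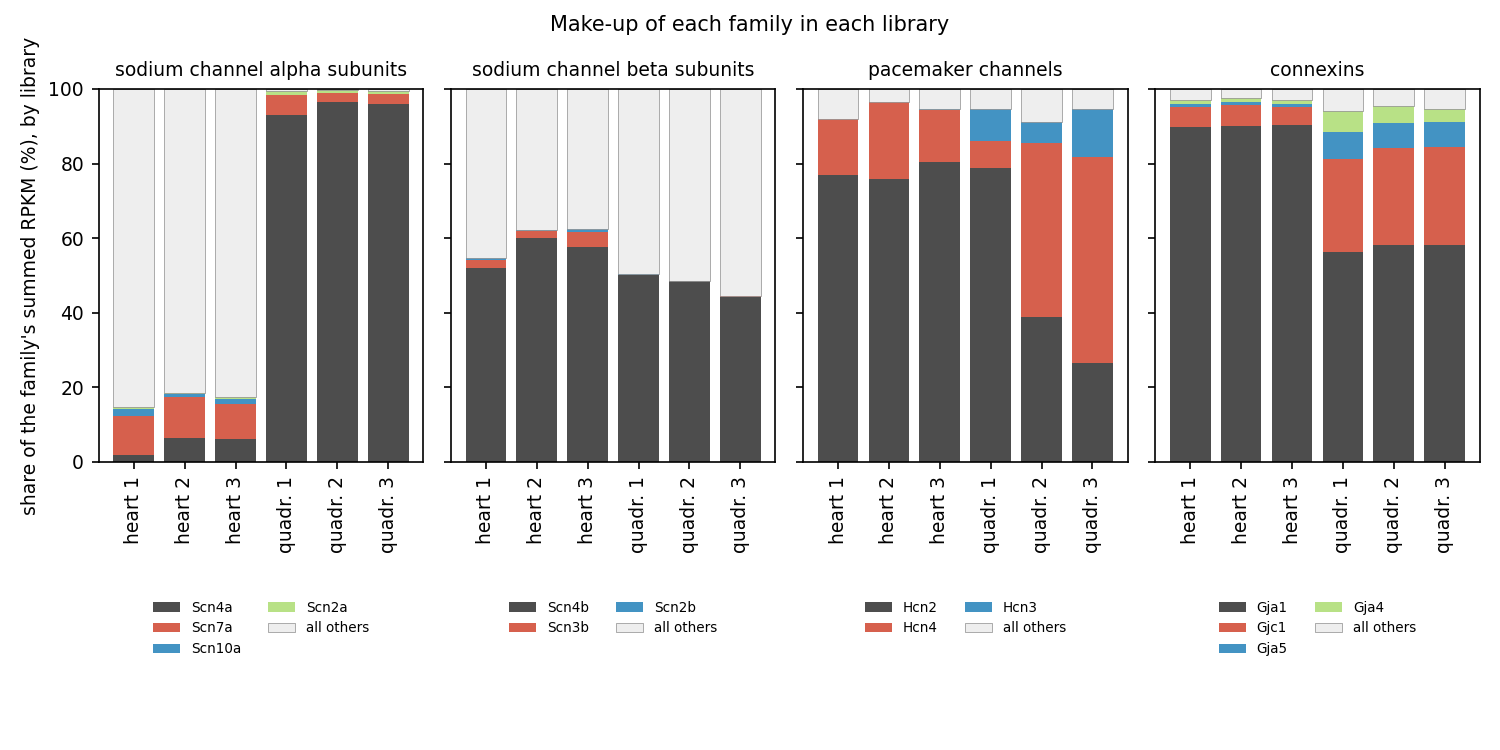
Share in percent of the summed RPKM of each family, as 1 stacked bar per library for sodium channel alpha subunits, beta subunits, pacemaker channels and connexins. Scn4a fills nearly all of the alpha subunit bars in quadriceps and little of those in heart, and Gja1 takes 90.2% of connexin RPKM in heart and 57.4% in quadriceps on average.

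Hcn2 (chromosome 10, 79716634 to 79736108, plus strand) and Hcn4 (chromosome 9, 58823412 to 58863175, plus strand) encode pacemaker channel subunits, the first shared by heart and neurons and the second the main one of the sinoatrial node. Both were low genes: in heart their mean RPKM was 5.84 ± 1.58 and 1.23 ± 0.339, and in quadriceps 0.0889 ± 0.0756 and 0.0509 ± 0.0323 (SD, n = 3 each). Hcn2 had 904, 599 and 522 counts in the heart libraries against 18, 7 and 2 in quadriceps. Every heart library was far above every quadriceps library, and the log2 fold change was -5.20 (SE 0.37, 36.7-fold, adjusted p 2.01e-06 by edgeR). Leaving out quadriceps replicate 1, the library with 18 counts, moved it to -6.00, so the size of the fold rests on few counts.

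Hcn4 had 212, 193 and 107 counts in the heart libraries against 2, 10 and 5 in quadriceps. Means were 3.59 ± 1.0 CPM in heart and 0.258 ± 0.174 in quadriceps (SD, n = 3 each), a log2 fold change of -3.84 (SE 0.42, 14.3-fold) with an adjusted p of 3.68e-05 by edgeR. Without quadriceps replicate 2 it was -4.49, and against heart replicate 3 alone it was -3.33. The pacemaker ratio was steady in heart, with 5.07, 3.69 and 5.8 times as much Hcn2 as Hcn4 in RPKM, and scattered in quadriceps, at 10.7, 0.833 and 0.476. These overlapped (difference -1.56 on the log2 scale, exact two-sided permutation p 0.4, adjusted 0.4).

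Heart replicate 1, highest in Hcn2 and Hcn4, was also highest in 4 of the 5 atrial markers and in Cntn2 (352, 205 and 91 counts), a marker of Purkinje cells, and Shox2 (97, 33 and 9), a nodal transcription factor, while Isl1 was at 0 counts in all 6 libraries. Tbx3 (12.3, 11.6 and 9.92 CPM), Cacna1d (2.14, 1.29 and 1.19) and Vsnl1 (0.63, 0.0596 and 0) were also highest there. Smoc2 ran the other way, at 35.7, 43.6 and 42.1 CPM, or 16.3, 20.3 and 19.4 RPKM. Smoc2 made up most of the sum over all 7 conduction markers. That sum was lowest in heart replicate 1, at 22.2, 24.5 and 22.6 RPKM. The quadriceps libraries summed to 8.17 to 11.4 RPKM, which is scaled to library totals. Under TMM, 4 of 5 tested markers were lower in quadriceps. The part of these markers in the Hcn levels was not tested.

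**Figure D3:**
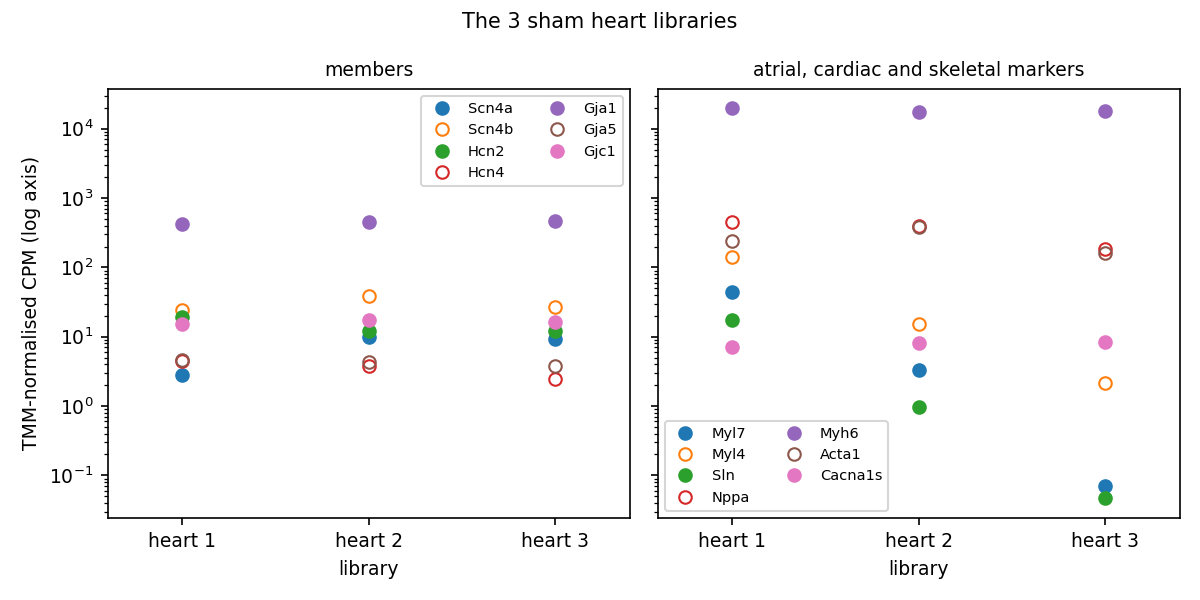
TMM-normalised CPM (log axis) of the members and, beside them, of atrial, cardiac and skeletal muscle markers in heart replicates 1, 2 and 3. Atrial markers such as Myl7 drop steeply between the libraries, Hcn2 and Hcn4 differ by less, and Gja1 stays within 418 to 471 CPM.

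For the 3 genes that fell beyond the log2 threshold, the 250 bases before the RefSeq start (GRCm38.p6) are shown, with matches to the searched motifs in capitals. They are Hcn2 at chr10:79716384-79716633, Hcn4 at chr9:58822699-58822948 and Gja1 at chr10:56377050-56377299, all on the plus strand:
Hcn2: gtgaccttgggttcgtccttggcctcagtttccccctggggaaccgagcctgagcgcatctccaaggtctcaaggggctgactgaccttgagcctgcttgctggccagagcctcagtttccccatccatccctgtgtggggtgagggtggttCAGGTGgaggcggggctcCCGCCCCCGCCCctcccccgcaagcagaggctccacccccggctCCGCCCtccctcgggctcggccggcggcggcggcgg
Hcn4: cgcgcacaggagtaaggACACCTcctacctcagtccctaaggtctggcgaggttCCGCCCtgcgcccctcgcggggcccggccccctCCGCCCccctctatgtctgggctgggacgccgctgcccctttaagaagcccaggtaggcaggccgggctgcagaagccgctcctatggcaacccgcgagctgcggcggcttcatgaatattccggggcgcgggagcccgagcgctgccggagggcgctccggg
Gja1: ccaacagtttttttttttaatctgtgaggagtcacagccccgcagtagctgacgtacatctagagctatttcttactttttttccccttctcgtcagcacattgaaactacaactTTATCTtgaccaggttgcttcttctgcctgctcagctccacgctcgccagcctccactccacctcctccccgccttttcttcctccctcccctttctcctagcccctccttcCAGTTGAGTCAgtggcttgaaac
Positions are counted back from the RefSeq start. GENCODE places the start of Hcn4 at 58823412 and that of Gja1 at 56377330, downstream of these windows, so the positions hold for the RefSeq start only. Hcn2 held an E-box (CANNTG) at -98 and 3 GC boxes (GGGCGG), and Hcn4 held a T-box half-site (AGGTGT) at -233 and 2 GC boxes. Gja1 held no GC box but a GATA match (AGATAA) at -135 and an E-box at -23 that overlaps an AP-1 match (TGANTCA) at -19. On both strands, these letters occur in 66.2% (E-box), 32.7% (GC box), 11.8% (T-box), 9.99% (GATA) and 6.75% (AP-1) of 32851 RefSeq windows of this length, so each match is a description of the sequence only. MEF2, CArG and NKX2-5 (TNAAGTG) motifs and the box of letters TATAAA had no match in the windows of the 6 members that have one. In the windows of Scn4a and Scn4b, 186 and 229 of the 250 bases lie in exons of the gene itself. For those genes the absence describes mostly exon sequence. GC content was 70.4% for Hcn2, 71.2% for Hcn4 and 50% for Gja1, where the median over all windows was 52.4%.

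Gja1 (chromosome 10, 56377330 to 56402513, plus strand) encodes Cx43, the main gap junction protein of working myocardium. It had 19907, 22437 and 20240 counts in the heart libraries against 460, 348 and 239 in quadriceps. Heart libraries lay within 418 to 471 CPM and quadriceps libraries within 13.5 to 16.9, for a log2 fold change of -4.89 (SE 0.14, 29.6-fold, adjusted p 5.43e-09 by edgeR). Quadriceps held 3.37% of the heart level. Per length it was the most abundant of the 7 genes in heart, at 186 ± 12.1 RPKM (SD, n = 3), and fell to 3.75 ± 0.692 in quadriceps.

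Gjc1 (chromosome 11, 102799579 to 102819700, minus strand) encodes Cx45, found in nodal cells and in vascular smooth muscle. Its main transcript had 726, 875 and 691 counts in the heart libraries against 131, 100 and 69 in quadriceps. Each heart library exceeded every quadriceps library, with a log2 fold change of -1.91 (SE 0.12, 3.76-fold, adjusted p 9.88e-07 by edgeR), and the other 2 transcripts gave -1.89 and -1.87. The 3 transcripts had nearly the same counts, so they are not independent values.

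Gja5 (chromosome 3, 96904693 to 97077416, plus strand) encodes Cx40, the connexin of atria, Purkinje fibres and arterial endothelium. It had 222, 217 and 162 counts in the heart libraries against 59, 39 and 28 in quadriceps, or 4.25 ± 0.448 and 1.79 ± 0.326 CPM (SD, n = 3 each). Its log2 fold change was -1.23 (SE 0.18, 2.34-fold, adjusted p 2.16e-04 by edgeR), the smallest of the 7, and -1.10 against heart replicate 3 alone. The second transcript, with 220, 216 and 160 against 59, 39 and 28 counts, gave -1.22. The gene span of Gja5 overlaps 4 genes on the opposite strand, of which only Gpr89 overlaps in an exon. No source states whether counting used strand, so reads from an exon shared with Gpr89 could not be told apart. Whether the counted Gja5 transcripts hold that exon was not examined.

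Markers of other cells that carry connexins were compared beside them. The 6 endothelial markers, among them Pecam1 and Cdh5, summed to 150 to 169 RPKM in heart and 26.7 to 36.3 in quadriceps, with 6 of 6 called lower. The arterial list, which holds the connexin gene Gja4, summed to 12.3 to 13.4 and 3.17 to 3.91, with 3 lower and 1 higher. Smooth muscle and pericyte markers summed to 137 to 147 and 59.2 to 94.9, with 2 of 6 called lower (Acta2, Kcnj8), 1 higher (Tagln) and 3 not called, among them Rgs5 with a log2 fold change of -0.01. Fibroblast markers summed to 258 to 288 and 109 to 170, with 4 of 5 lower and Tcf21 at 0 counts in quadriceps. All these sums are scaled to library totals and the calls to TMM, so they do not share a scale. Rgs5 averaged 88.2 RPKM in heart and 52.7 in quadriceps. Dcn, the fibroblast marker not called (log2 fold change -0.18), averaged 217 and 115 RPKM. As a percentage of the endothelial sum, Gja5 was 1.28, 1.13 and 0.926 in heart and 1.6, 1.42 and 1.14 in quadriceps. Those ranges overlap, and the part of these cell types in the fall of the connexins was not tested.

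The 3 connexins fell by unequal amounts. In each library the ratio of Gja1 to Gja5 in RPKM was 90.2, 104 and 126 in heart and 7.84, 8.97 and 8.59 in quadriceps. Gja1 to Gjc1 was 17.5, 16.4 and 18.7 in heart and 2.24, 2.22 and 2.21 in quadriceps. Gja5 to Gjc1 ran the other way, from 0.194, 0.157 and 0.149 in heart to 0.286, 0.247 and 0.257 in quadriceps. On the log2 scale the differences were -3.64, -2.98 and 0.67, the groups did not overlap in any of the 3, and each gave the smallest exact two-sided permutation p that 3 against 3 allow, 0.1 (adjusted 0.167 over 5 pairs). Any of these 3 ratios follows from the others, so they are not independent results. Gja1 took 90.2% ± 0.259 of connexin RPKM in heart and 57.4% ± 1.11 in quadriceps, while Gjc1 went from 5.16% ± 0.337 to 25.8% ± 0.668 and Gja5 from 0.861% ± 0.139 to 6.8% ± 0.345 (SD, n = 3 each).

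**Figure D4:**
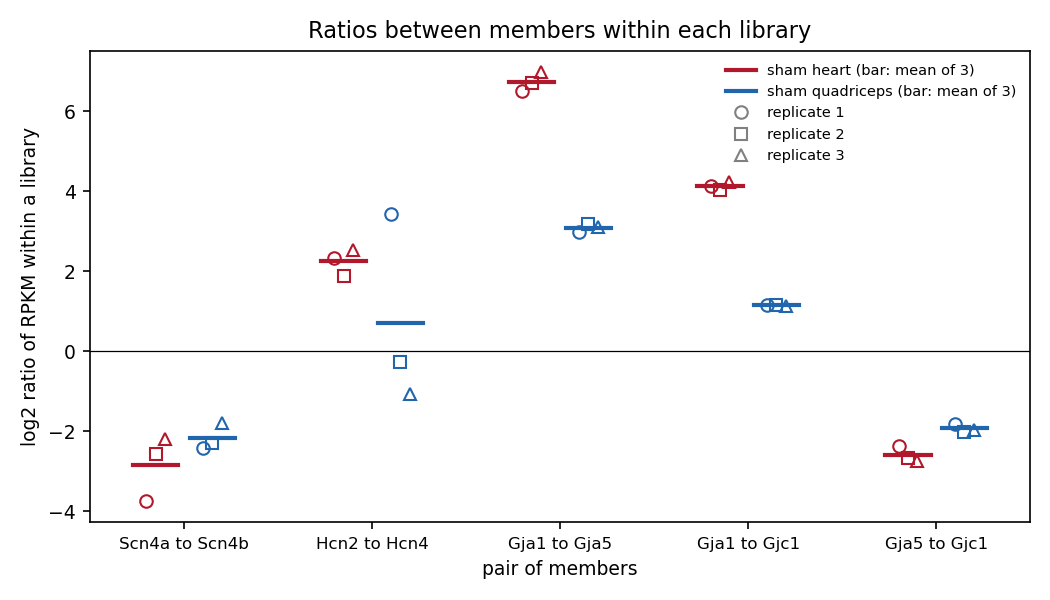
Ratio of RPKM between members of the same family within each library, on a log2 scale, with 1 point per library. The 3 connexin pairs separate heart from quadriceps without overlap, and the Scn4a to Scn4b and Hcn2 to Hcn4 pairs overlap.

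Gja3 and Gja4 were the other connexins at 1 RPKM or more in either tissue. Gja3, best known from lens, had 538, 480 and 529 counts in heart and 0 in all quadriceps libraries, at least 81.8-fold lower against a floor of 3 counts per library (adjusted p 4.24e-07 by edgeR). Gja4, the arterial Cx37, had 114, 133 and 128 in the heart libraries against 25, 15 and 8 in quadriceps (log2 fold change -1.95, SE 0.25, adjusted p 9.13e-05 by edgeR). Of 20 connexin genes listed, 7 were tested, 5 fell and 1 rose. Over all 38 channel and connexin genes, 20 were tested, with 6 higher, 11 lower and 3 not called, and without the 7 members 13 were tested, with 4 higher and 6 lower. At the same adjusted p under 0.05, 32.2% of all tested transcripts were higher and 34.4% lower. The median over the 20 was -1.72, and scaling by library totals in place of TMM gave 3 higher genes, Scn4a and Scn4b among them.

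**Figure D5:**
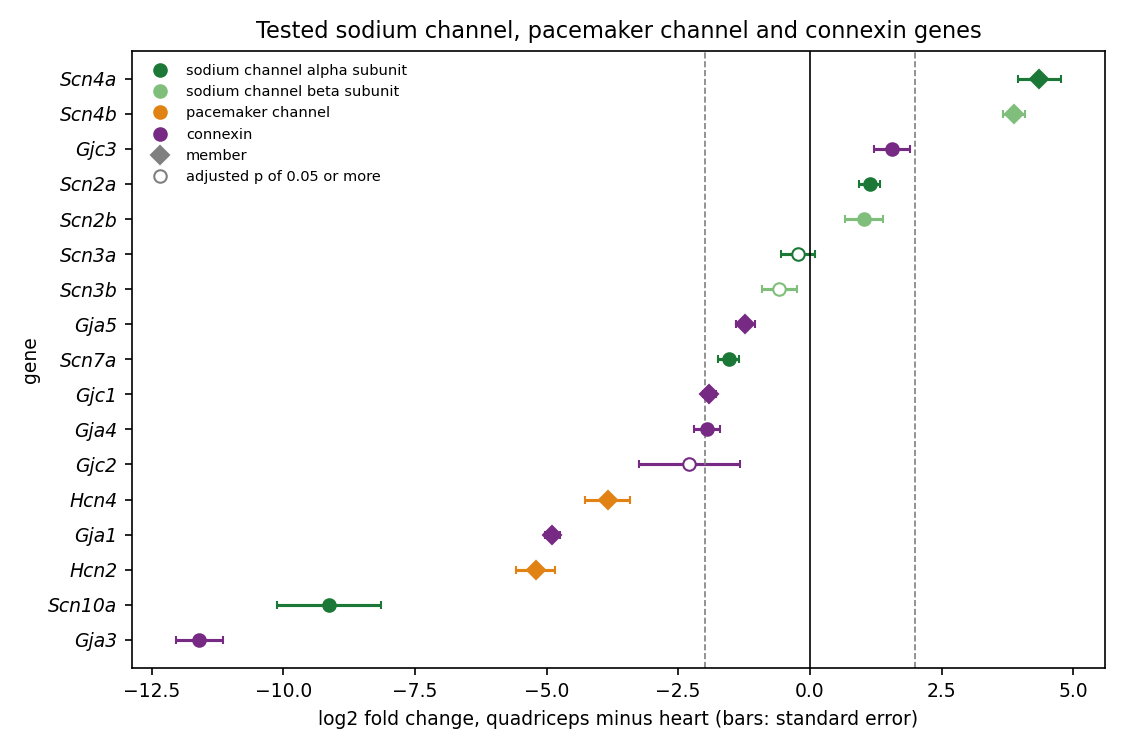
Log2 fold change (quadriceps minus heart) with its SE for tested genes of the sodium channel, pacemaker channel and connexin lists, with members marked and dashed lines at -2 and 2. Scn4a and Scn4b lie above 2, and for genes at 0 counts in all quadriceps libraries, such as Gja3, the plotted value is a fitted one that depends on the prior count.

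Ordered by mean RPKM in heart, the 7 genes ran Gja1, Gjc1, Scn4b, Hcn2, Gja5, Scn4a and Hcn4. Gja1 stood clear of Gjc1 and Hcn2 clear of Gja5, and all other neighbours overlapped in their 3 libraries. In quadriceps the order was Scn4b, Scn4a, Gja1, Gjc1, Gja5, Hcn2 and Hcn4, where only Hcn2 and Hcn4 overlapped. So the sodium channel genes stood above Gja1 in quadriceps and well below it in heart.

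Of 22 intercalated disc and channel partner genes, 21 were tested, with 5 higher, 13 lower and 3 not called, and a median of -1.24. At the same adjusted p under 0.05, 32.2% of all tested transcripts were higher and 34.4% lower, with a median of -0.06. Scaling by library totals gave 1 partner higher and 16 lower. The 4 largest falls were those of Dsp, Dsg2, Cdh2 and Dsc2, while Jup, the desmosomal plakoglobin, gave -1.95 and Ctnna3, an alpha-catenin of the disc, -1.24 (both named after their values were seen). Dsp, the desmosomal linker desmoplakin, had 62852, 64085 and 47415 counts in the heart libraries against 1, 0 and 3 in quadriceps (0.00558% of the heart CPM). Dsg2, a desmosomal cadherin, had 2393, 1973 and 1908 against 1, 0 and 0 (0.0275%). Cdh2, the N-cadherin of the disc, gave a log2 fold change of -8.76 (SE 0.21) and Dsc2, a desmosomal cadherin, -7.93 (SE 0.21), with adjusted p of 2.35e-09 and 4.02e-09 by edgeR. In quadriceps Cdh2 had 15, 13 and 4 counts and Dsc2 4, 5 and 2, so the size of both folds rests on few counts. Dsp, Dsg2, Cdh2 and Dsc2 encode disc components beside which Cx43 sits in the working myocardium.

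Among the partners that rose, Rangrf, which aids sodium channel trafficking, gave 0.98, Ank3, ankyrin-G, gave 0.78, and Cav3, the muscle caveolin, gave 0.69. With library totals in place of TMM these were 0.23 for Rangrf, 0.03 for Ank3 and -0.07 for Cav3, so none of these 3 was still called and Cav3 turned direction.

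By Euclidean distance between centred log2 CPM over the 6 libraries, among 14905 other genes, Scn4a lay nearest to Col22a1 (0.727) and Casq1 (0.82), and Scn4b to Fhl3 (0.362) and Thbs4 (0.426). Casq1, the calsequestrin of fast skeletal fibres, had 3175, 6569 and 4589 counts in the heart libraries against 59824, 75274 and 45474 in quadriceps, and like Scn4a it was lowest in heart replicate 1. Hcn2 lay nearest to Efna5 (0.847) and Tchh (0.901), and Hcn4 to Lrrn2 (0.873) and 1810034E14Rik (0.891). Gja1 lay nearest to Meis2 (0.286) and Slc12a7 (0.316), Gja5 to Doc2a (0.0767) and Agtrap (0.0828), and Gjc1 to Snai1 (0.04) and Rbm15b (0.0904). With libraries of 2 tissues only, genes of like fold change lie close by this measure.

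Scaling set the size of every fold. With library totals in place of TMM, the median over all tested transcripts moved by -0.75 on the log2 scale, and the share of calls that were higher in quadriceps went from 48.4% to 17.6%. Scn4a was then 3.60, Scn4b 3.11, Hcn2 -5.93, Hcn4 -4.58, Gja1 -5.63, Gja5 -1.97 and Gjc1 -2.65, each in the direction given above, and Gjc1 then passed the log2 threshold. On log2(RPKM + 1) with limma, a scale that shrinks low genes, Scn4a was 2.97, Scn4b 2.99, Hcn2 -2.63 and Hcn4 -1.07.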

How the data were processed

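RNA was sequenced from 3 sham heart and 3 sham quadriceps samples of the mouse. By the labels and methods, the authors purified mRNA from total RNA and made the libraries with ScriptSeq v2. They used Trim Galore for trimming and STAR for alignment to mm10, and counted reads per RefSeq transcript. The deposited values used here are these raw counts. The deposited RPKM values are the authors' counts divided by transcript length and by the column total, which was checked. The columns of the authors' own edgeR comparison (fold changes, F and p-values) were not used, nor was the TAC table. Whether counting used strand is not given in the sources used here.

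Transcripts above 5 counts in 2 or more libraries were fitted with edgeR 4.0.16 in R 4.3.3 (TMM, quasi-likelihood F-test on tissue, Benjamini-Hochberg adjustment), tested on simulated data first. SE is the log2 fold change over the square root of F. A gene with several transcripts is shown by that with the highest mean count. Depth was 23383452 to 38382751 counts, so counting error matters only for genes of few reads, such as Hcn2 and Hcn4 in quadriceps. Ratios between members used an exact permutation test. The genes named beside the members are family genes with a mean of at least 1 RPKM in either tissue, the 4 largest rises and falls among partners, and the 2 nearest genes of each member, and a few genes that this rule names are not reported here. DESeq2 1.42.0, limma 3.58.1 on log2(RPKM + pseudocount), other filters and scalings, leaving out each library and heart replicate 3 alone were alternatives. The members and lists were chosen with earlier results of these data known. Promoter sequences come from RefSeq (GRCm38.p6), and gene positions from GENCODE vM21, both on the assembly that mm10 names.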

Additional observations from a re-analysis of the deposited data

How the results depend on the processing

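Every member kept its direction under each of the alternatives in which it was tested. Each also kept its call at an adjusted p under 0.05, leaving aside heart replicate 3 alone, where a call measures no spread between hearts. Requiring 10 or more counts in each library dropped Hcn2 and Hcn4, which left 3 members lower, 1 of them beyond the log2 threshold, and it left 4 family genes lower (1 beyond the threshold), 7 partners lower (4) and 861 higher and 839 lower transcripts beyond the threshold. Library totals gave 3 family genes higher, 1 partner higher (0 beyond the threshold), 3241 transcripts higher and 15203 lower, and 4171 lower beyond the threshold. Limma on log2(RPKM + 0.5), + 0.1 and + 1 gave 3 family genes and 1 partner higher each (0 partners beyond the threshold), 3158, 3177 and 3110 transcripts higher, 15149, 15320 and 14834 lower, and 552, 801 and 419 higher beyond the threshold. With 0.5 and 1 it gave 5 family genes lower beyond the threshold, and 1344 and 902 transcripts. Without a filter 5 family genes were higher beyond the threshold. With 1 transcript per gene, 4744 were higher and 5059 lower (1059 and 1353 beyond the threshold). Against heart replicate 3 alone, assumed to vary like the quadriceps libraries, 4627 transcripts were higher and 4999 lower (1264 lower beyond the threshold), 5 family genes and 4 partners were lower beyond the threshold, and 2 partners were higher. The cause of these shifts was not tested, other than fewer genes or libraries where the alternative has fewer. The ratio of Scn4a to Scn4b turned to a difference of -0.02 with RPKM + 1.

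Libraries with the same number did not deviate together (r of 0.055, -0.053 and 0.035), nor was each library closest to its own number, so the numbers were not taken as pairs. With the replicate number as a block 7541 transcripts were higher and 8175 lower, with all 7 members called as before. The alternatives for the TAC table were not run, since it lists none of the 7 genes. Depth limits the size of the fold of Hcn2 and Hcn4, with 2 to 18 counts per quadriceps library.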
